A study of Homo sapiens with 8 samples.

Results

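The genes described here are the well-expressed numbered zinc finger genes of human A375 melanoma cells. They were taken as every entry named ZNF followed by a number alone whose vector mean was 200 or more normalized reads in the authors' deposited table of SLNCR1 against vector. Of 56638 entries, 483 carried such a name and 243 met this level. Another 154 had a vector mean of 50 to under 200 and 86 had less, of which 4 had no reads in any library. The level in vector chose the members and is also the baseline of every difference from vector. A gene that reached 200 through a high vector value was therefore favoured to be lower with a construct, and a gene above 200 with a construct but not with vector was left out.

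A375 is an established line from a malignant melanoma of the skin. The cells carried the expression plasmid pcDNA3.1(-) with full-length SLNCR1, with SLNCR1 conserved (its conserved region alone) or with SLNCR1 delta conserved (the RNA without that region), or as empty vector. SLNCR1 is a long noncoding RNA that has been linked to melanoma invasion, and the constructs ask which part of it goes with an expression change. All 4 groups received Lipofectamine 2000 at 24 h after seeding, grew in 10% serum and were harvested 48 h after transfection, with 2 poly(A) RNA libraries each. The labels do not name separate cultures, and a p-value here reflects only how far these libraries differ, which may be technical.

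C2H2 zinc finger proteins form the largest family of human transcription factors, and each finger folds around a zinc ion and can read a few bases of DNA. Many of them join a finger array to a KRAB domain, which recruits the scaffold protein TRIM28 and, through it, histone methyltransferases, HP1 proteins and deacetylases that silence chromatin. A large share of KRAB genes lies in clusters on chromosome 19, and many bind retrotransposons. Other members lack KRAB and act as activators, as parts of corepressor complexes, or in RNA and protein control.

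The 8 libraries held between 8222868 and 12015394 reads on genes. There were 10097194 and 9090649 with SLNCR1 and 9187241 and 8222868 with SLNCR1 delta conserved. SLNCR1 conserved had 11340439 and 10280144, and vector 12015394 and 11321294. Every SLNCR1 and SLNCR1 delta conserved library was thus shallower than every SLNCR1 conserved and vector library. The part of depth in the differences was not tested. The deeper library of each group is called a and the other b, since nothing in the tables ties a library to a replicate number. The melanoma regulator gene SOX10 was at 2940 to 3704 normalized reads in all 8 libraries, while the endothelial gene PECAM1 was at 0 and the leukocyte gene PTPRC was at 2.23 or less. Other listed markers were read: VWF (endothelium) stood at 22.7 or less, KRT14 and KRT10 (keratinocyte) at 73.9 to 109 and 535 to 688, and COL1A1 (fibroblast) at 139 to 276, and the part of other cell types in the results was not tested. The pigment genes PMEL and MLANA, which also mark melanocytes, were at 42.8 or less. The host gene of SLNCR1, LINC00511, stood at 864 and 886 normalized reads with SLNCR1, 1052 and 1141 with SLNCR1 conserved and 1155 and 870 with SLNCR1 delta conserved, against 628 and 621 with vector, so every construct library was above both vector libraries.

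A larger share of the ZNF members than of all features fell with SLNCR1 and with SLNCR1 delta conserved, and no member passed as higher. With SLNCR1, 25 of 243 members fell in the authors' deposited table, which is 10.3%, where 0.844% of 33548 features with a p fell and 0.0388% rose. With SLNCR1 delta conserved, 35 members fell in the authors' deposited table, which is 14.4%, where 1.14% of 34744 features fell and 1.11% rose. Among the 9927 genes with a vector mean of 200 or more, the shares that fell in the authors' deposited table were 2.09% with SLNCR1 and 3.0% with SLNCR1 delta conserved. With SLNCR1 conserved, 0 members passed the authors' deposited test in either direction, where 0.0175% of features rose and 0.0% fell.

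At an unadjusted p under 0.05, 1 member was higher and 83 lower with SLNCR1 in the authors' deposited table, where 2.64% of features were higher and 3.62% lower. The matching counts with SLNCR1 delta conserved were 0 and 83 in the authors' deposited table, where 4.31% of features were higher and 3.68% lower. With SLNCR1 conserved they were 6 and 1 in the authors' deposited table, where 0.725% of features were higher and 0.614% lower. The member counts were thus one-sided with SLNCR1 and SLNCR1 delta conserved, and small in both directions with SLNCR1 conserved.

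The reads of single libraries could be solved from the group means, and limma was fitted to them on log2(normalized reads + 1) over all 4 groups and 16071 features. By limma's adjusted p under 0.05, 84 members fell and 0 rose with SLNCR1, where 7.4% of features fell and 3.93% rose. With SLNCR1 delta conserved, 65 fell and 0 rose, where 5.24% of features fell and 5.18% rose, and with SLNCR1 conserved 0 members passed, where 0.0% of features fell and 0.00622% rose. At an unadjusted p under 0.05, limma had 2 members higher and 129 lower with SLNCR1, where 13.7% of features were higher and 14.8% lower. With SLNCR1 delta conserved it had 2 higher and 107 lower, where 12.2% of features were higher and 11.3% lower, and with SLNCR1 conserved 7 higher and 3 lower, where 2.99% of features were higher and 2.45% lower. Single libraries moved the counts of limma's calls: with SLNCR1 the count was 27 without vector a, 56 without SLNCR1 b and 127 without SLNCR1 a. For SLNCR1 delta conserved the count was 20 without vector a, 43 without vector b, 24 without SLNCR1 delta conserved a and 32 without SLNCR1 delta conserved b.

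The shift ran through most of the set. The median log2 difference of the members from vector, by limma, was -0.22 with SLNCR1, 0.03 with SLNCR1 conserved and -0.18 with SLNCR1 delta conserved. For the 9684 other genes with a vector mean of 200 or more the same medians were 0.04, 0.04 and 0.03. With SLNCR1, 210 of 243 members had a log2 difference below 0, with SLNCR1 conserved 98, and with SLNCR1 delta conserved 208. Of the 9684 other genes, 4122, 3399 and 4124 were below 0 in the same order. Both libraries lay below both vector libraries for 158 members with SLNCR1 (65%, where 25.4% of all features did so) and likewise for 158 with SLNCR1 delta conserved (where 26.0% of features did). Both lay above both vector libraries for 9 members with SLNCR1 and 10 with SLNCR1 delta conserved, where 27.2% and 27.7% of features did. With SLNCR1 conserved, 29 members had both libraries below (11.9%, where 16.7% of features did) and 66 had both above (27.2%, where 25.0% of features did). The comparisons share the 2 vector libraries.

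**Figure D1:**
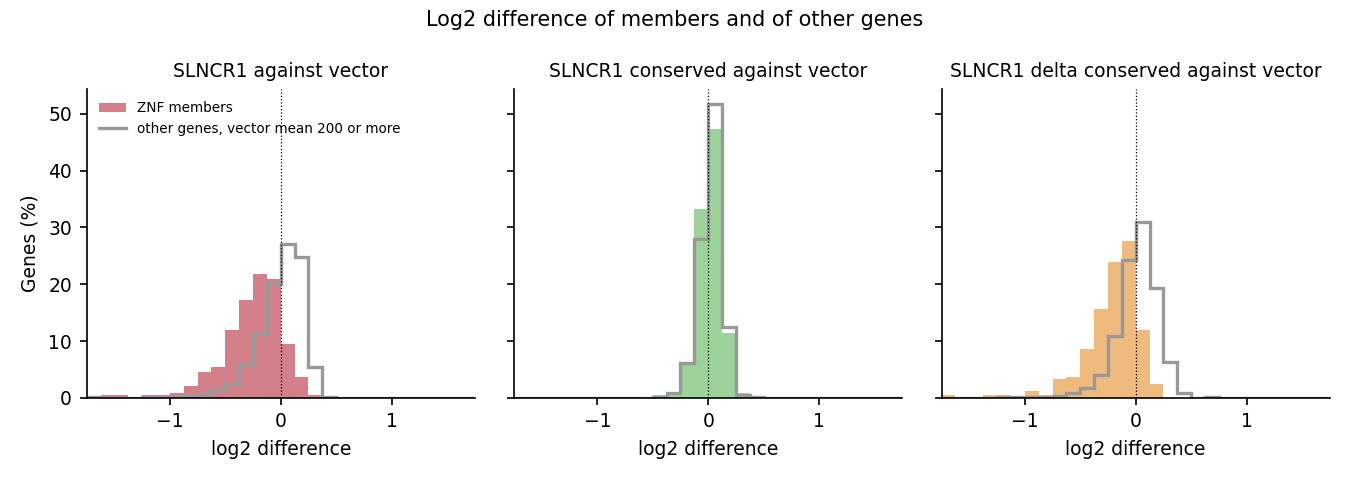
Share of genes (percent, y axis) by limma's log2 difference from vector (x axis) for SLNCR1, SLNCR1 conserved and SLNCR1 delta conserved, with the 243 ZNF members filled and the 9684 other genes with a vector mean of 200 or more as a grey outline. Values beyond the axis are counted in its end bins. The members' medians lie at -0.22 with SLNCR1, 0.03 with SLNCR1 conserved and -0.18 with SLNCR1 delta conserved.

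The same shift was seen library by library. Members took 1.22% and 1.16% of all reads in the SLNCR1 libraries, 1.40% and 1.36% with SLNCR1 conserved, and 1.2% and 1.19% with SLNCR1 delta conserved, against 1.42% and 1.38% with vector. The 2 SLNCR1 libraries differed from each other: their median log2 difference from the vector mean over the members was -0.17 in SLNCR1 a and -0.28 in SLNCR1 b. For SLNCR1 delta conserved both libraries were at -0.17, and for SLNCR1 conserved they were at 0.04 and 0.01. In bulk RNA, fewer cells that express a gene and less of its RNA per cell cannot be told apart.

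Genes just inside and just outside the chosen level are given as a description. The lowest members were ZNF141, ZNF615 and ZNF669, with vector means of 201.5, 202.5 and 203.7 in the authors' deposited table. Of these, ZNF615 fell with SLNCR1 (log2 -0.68, adjusted p = 0.0389) and with SLNCR1 delta conserved (log2 -0.58, adjusted p = 0.0466) in the authors' deposited table. Just below were ZNF569, ZNF383 and ZNF845, with vector means of 199.7, 199.6 and 195.7 in the authors' deposited table. There ZNF383 fell with SLNCR1 (log2 -0.87, adjusted p = 0.00244) and with SLNCR1 delta conserved (log2 -0.87, adjusted p = 0.011) in the authors' deposited table. Over the 154 numbered ZNF genes with a vector mean of 50 to under 200, limma's median log2 difference was -0.23 with SLNCR1, 0.01 with SLNCR1 conserved and -0.21 with SLNCR1 delta conserved. Of these 154, 10 fell with SLNCR1 (6.49%) and 13 with SLNCR1 delta conserved (8.44%) in the authors' deposited tables. Over all features the shares were 0.844% and 1.14%. Other choices of level were tried after the data were seen. With an SLNCR1 conserved mean of 200 or more in place of the vector mean, 239 genes were chosen, 236 of them members, and 24 fell with SLNCR1 and 34 with SLNCR1 delta conserved in the authors' deposited tables, with limma medians of -0.21 and -0.18. With a mean over all 8 libraries of 200 or more, 223 were chosen, all of them members, and 18 fell with SLNCR1 and 28 with SLNCR1 delta conserved in the authors' deposited tables, with limma medians of -0.20 and -0.15. None of the genes chosen in these ways passed as higher against vector in either test.

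ZNF79 on chromosome 9, whose protein has 11 fingers and no match to the KRAB profile, had the largest fall of all members. It had 185 and 131 normalized reads in the SLNCR1 libraries, 499 and 503 with SLNCR1 conserved and 147 and 153 with SLNCR1 delta conserved, against 454 and 474 with vector. Its SLNCR1 and SLNCR1 delta conserved libraries were all far below both vector libraries, and its SLNCR1 conserved libraries were slightly above them. The log2 fold changes in the authors' deposited tables were -1.55 with SLNCR1 (adjusted p = 7.72e-20), 0.09 with SLNCR1 conserved (adjusted p = 1.0) and -1.64 with SLNCR1 delta conserved (adjusted p = 1.59e-26). By limma the difference was -1.57 ± 0.13 with SLNCR1 (SE, adjusted p = 3.27e-07) and -1.63 ± 0.13 with SLNCR1 delta conserved (SE, adjusted p = 1.79e-07).

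ZNF441, a KRAB gene with 14 fingers on chromosome 19, had 160 and 150 normalized reads with SLNCR1, 486 and 490 with SLNCR1 conserved and 174 and 182 with SLNCR1 delta conserved, against 454 and 409 with vector. All 4 SLNCR1 and SLNCR1 delta conserved libraries were well below every SLNCR1 conserved and vector library. In the authors' deposited tables it fell by 1.47 on the log2 scale with SLNCR1 (adjusted p = 1.08e-17) and by 1.28 with SLNCR1 delta conserved (adjusted p = 8.61e-17). ZNF844 is a KRAB gene with 6 fingers, also on chromosome 19. It had 359 and 344 normalized reads with SLNCR1, 896 and 817 with SLNCR1 conserved and 325 and 356 with SLNCR1 delta conserved, against 756 and 747 with vector. Again the SLNCR1 conserved libraries were the highest, and the other constructs lay well below vector. Its log2 fold changes in the authors' deposited tables were -1.09 with SLNCR1 (adjusted p = 2.84e-14), 0.17 with SLNCR1 conserved (adjusted p = 1.0) and -1.15 with SLNCR1 delta conserved (adjusted p = 2.59e-21).

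The promoters of ZNF79, ZNF441 and ZNF844 are shown because these 3 genes had the largest falls that passed in the authors' deposited table for SLNCR1. They are RefSeq sequence of build GRCh38.p14, from 250 bases before to 50 after the gene's start, all on the plus strand, at chr9:127424132-127424431, chr19:11766750-11767049 and chr19:12064481-12064780. Capitals mark the GC box GGGCGG, the CCAAT box and, in ZNF79, the ETS core CCGGAAG, found on either strand, and none of these letter strings holds another.
ZNF79: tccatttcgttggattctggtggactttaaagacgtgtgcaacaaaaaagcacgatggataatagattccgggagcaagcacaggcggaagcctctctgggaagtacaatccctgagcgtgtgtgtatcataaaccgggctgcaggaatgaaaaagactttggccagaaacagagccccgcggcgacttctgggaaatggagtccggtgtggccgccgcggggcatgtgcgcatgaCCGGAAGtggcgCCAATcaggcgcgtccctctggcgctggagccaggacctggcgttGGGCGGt
ZNF441: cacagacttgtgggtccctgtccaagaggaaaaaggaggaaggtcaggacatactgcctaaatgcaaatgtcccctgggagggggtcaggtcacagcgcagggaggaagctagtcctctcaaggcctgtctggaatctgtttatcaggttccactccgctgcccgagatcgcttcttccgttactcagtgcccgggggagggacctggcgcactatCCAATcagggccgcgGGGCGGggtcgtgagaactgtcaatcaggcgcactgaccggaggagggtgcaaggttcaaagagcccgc
ZNF844: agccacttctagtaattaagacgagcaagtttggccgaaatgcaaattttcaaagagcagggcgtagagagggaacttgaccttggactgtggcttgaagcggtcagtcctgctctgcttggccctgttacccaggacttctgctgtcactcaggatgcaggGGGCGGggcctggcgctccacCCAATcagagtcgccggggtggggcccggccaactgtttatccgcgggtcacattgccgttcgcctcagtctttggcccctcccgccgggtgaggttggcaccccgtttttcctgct

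The promoter table matched 211 of the 243 members. ETS factors bind a core with the letters CCGGAAG, which stood in 97 member promoters (46.0%), in 18.4% of the promoters of 10401 genes that limma tested and in 10.7% of all 27305 promoters of the same length. The CCAAT box stood in 45% of member promoters, against 36.7% in tested genes and 35.7% in all promoters. For the GC box the shares were 66.8% in members, 69.2% in tested genes and 44.6% in all promoters. The E-box CACGTG was in 5.69% of member promoters, against 10.0% in tested genes and 7.43% in all. Among the 33 promoters of members that fell with SLNCR1 or SLNCR1 delta conserved in the authors' deposited tables, 16 held the ETS core (48.5%), a share close to that of all members. These are matches of letters and say nothing about binding.

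ZNF44, with KRAB and 14 fingers, had 157 and 167 normalized reads with SLNCR1, 352 and 329 with SLNCR1 conserved and 155 and 179 with SLNCR1 delta conserved, against 313 and 330 with vector. ZNF184 on chromosome 6, with KRAB and 20 fingers, had 126 and 127 with SLNCR1, 261 and 264 with SLNCR1 conserved and 124 and 134 with SLNCR1 delta conserved, against 262 and 233 normalized reads with vector. In both genes the SLNCR1 and SLNCR1 delta conserved libraries were close together and far below vector, without overlap. ZNF44 fell by 0.99 on the log2 scale with SLNCR1 (adjusted p = 1.14e-06) and by 0.95 with SLNCR1 delta conserved (adjusted p = 2.14e-07) in the authors' deposited tables. For ZNF184 the log2 in the authors' deposited tables was -0.96 (adjusted p = 3.18e-05) with SLNCR1 and -0.95 (adjusted p = 7.85e-06) with SLNCR1 delta conserved.

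ZNF773, a chromosome 19 KRAB gene, had 141 and 139 normalized reads with SLNCR1, 257 and 266 with SLNCR1 conserved and 138 and 134 with SLNCR1 delta conserved, against 255 and 246 with vector. ZNF267, a KRAB protein described as a repressor of MMP10 in liver stellate cells, had 240 and 204 with SLNCR1, 446 and 473 with SLNCR1 conserved and 233 and 225 with SLNCR1 delta conserved, against 375 and 401 normalized reads with vector. The libraries of a group lay close to each other for both genes, and neither of the lowered groups overlapped with vector. In the authors' deposited tables ZNF773 fell with SLNCR1 (log2 -0.84, adjusted p = 0.000558) and with SLNCR1 delta conserved (log2 -0.89, adjusted p = 3.76e-05). ZNF267 fell with SLNCR1 (log2 -0.80, adjusted p = 5.35e-05) and with SLNCR1 delta conserved (log2 -0.77, adjusted p = 9.66e-06) in the authors' deposited tables.

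ZNF484, ZNF283 and ZNF654 complete the 10 largest falls with SLNCR1 that passed in the authors' deposited table, and all 3 also fell with SLNCR1 delta conserved. ZNF484 had 123 and 104 normalized reads with SLNCR1, 233 and 232 with SLNCR1 conserved and 146 and 116 with SLNCR1 delta conserved, against 215 and 196 with vector. ZNF283 had 194 and 140 with SLNCR1, 326 and 285 with SLNCR1 conserved and 177 and 210 with SLNCR1 delta conserved, against 318 and 281 normalized reads with vector. ZNF654, which lacks KRAB, had 270 and 238 with SLNCR1, 461 and 451 with SLNCR1 conserved and 299 and 317 with SLNCR1 delta conserved, against 454 and 410 normalized reads with vector. For none of the 3 did the SLNCR1 or SLNCR1 delta conserved libraries overlap with vector. Their log2 fold changes in the authors' deposited tables with SLNCR1 were -0.86 (ZNF484, adjusted p = 0.00158), -0.84 (ZNF283, adjusted p = 0.00966) and -0.76 (ZNF654, adjusted p = 6.07e-05). With SLNCR1 delta conserved they were -0.66 (ZNF484, adjusted p = 0.0165), -0.64 (ZNF283, adjusted p = 0.00281) and -0.49 (ZNF654, adjusted p = 0.00799) in the authors' deposited tables.

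**Figure D2:**
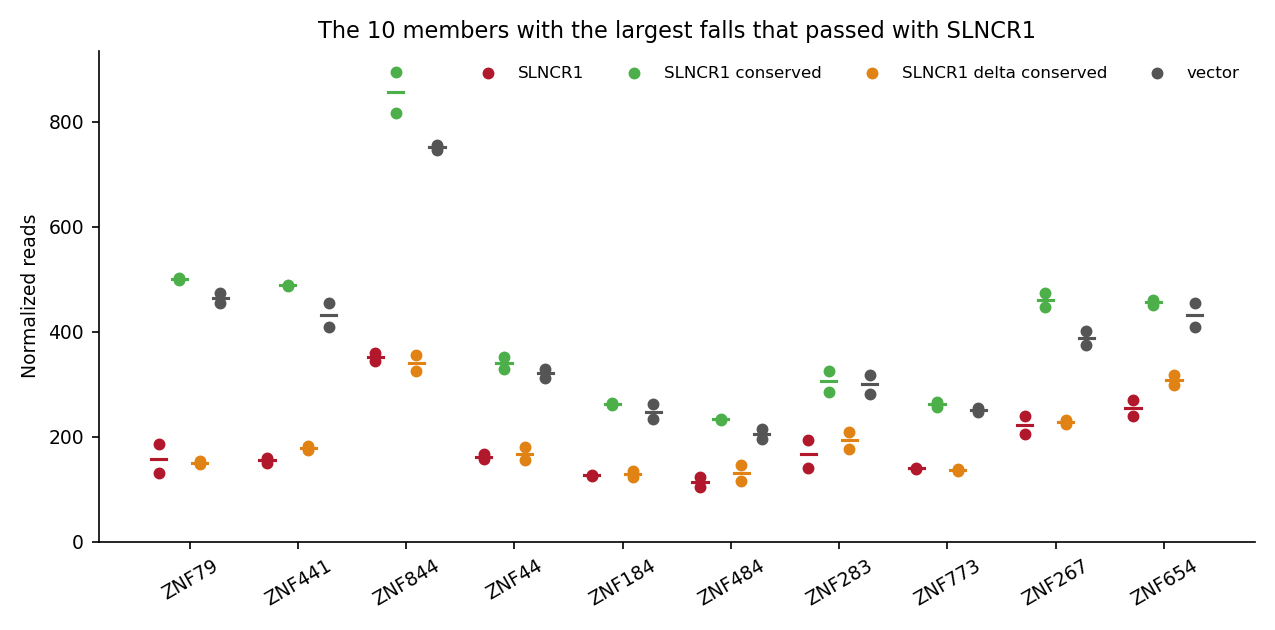
Normalized reads (y axis) of the 10 members with the largest log2 falls that passed with SLNCR1 (x axis), with 1 point per library and a bar at the mean of the 2 libraries of SLNCR1, SLNCR1 conserved, SLNCR1 delta conserved and vector. For ZNF79 the SLNCR1 libraries sit at 185 and 131 and the SLNCR1 delta conserved libraries at 147 and 153, below the vector libraries at 454 and 474, while the SLNCR1 conserved libraries sit at 499 and 503.

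With SLNCR1 delta conserved the 10 largest falls also held ZNF671, ZNF420 and ZNF256, all KRAB genes on chromosome 19. ZNF420, known as APAK for its repression of p53 targets, had 137 and 119 normalized reads with SLNCR1, 224 and 195 with SLNCR1 conserved and 128 and 123 with SLNCR1 delta conserved, against 215 and 194 with vector. ZNF671 had 118 and 135 with SLNCR1, 225 and 205 with SLNCR1 conserved and 108 and 141 with SLNCR1 delta conserved, against 209 and 205 normalized reads with vector. ZNF256 had 137 and 150 with SLNCR1, 230 and 224 with SLNCR1 conserved and 129 and 141 with SLNCR1 delta conserved, against 223 and 215 normalized reads with vector. All 3 were below vector in every SLNCR1 and SLNCR1 delta conserved library. In the authors' deposited table for SLNCR1 delta conserved the log2 was -0.74 for ZNF671 (adjusted p = 0.00348), -0.71 for ZNF420 (adjusted p = 0.00681) and -0.70 for ZNF256 (adjusted p = 0.00546). With SLNCR1, ZNF671 (log2 -0.71, adjusted p = 0.0173) and ZNF420 (log2 -0.67, adjusted p = 0.0378) fell in the authors' deposited table, and ZNF256 did not pass (log2 -0.61, adjusted p = 0.0703).

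ZNF460 shows how 1 library can move the size of a difference. It had 222 and 110 normalized reads with SLNCR1, 379 and 367 with SLNCR1 conserved and 257 and 306 with SLNCR1 delta conserved, against 364 and 358 with vector. The SLNCR1 libraries were both below vector but differed by more from each other than those of any other group. It did not pass in the authors' deposited table for SLNCR1 (log2 -1.12, adjusted p = 0.0527), and limma gave -1.20 ± 0.20 (SE, adjusted p = 0.000907). Without SLNCR1 a limma's value was -1.70, and without SLNCR1 b it was -0.70.

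SLNCR1 conserved left the members near vector. Those with the lowest p in that comparison were ZNF136, ZNF146, ZNF24, ZNF267, ZNF318, ZNF469, ZNF678, ZNF697, ZNF721 and ZNF844, each at an adjusted p of 1.0 in the authors' deposited table. ZNF136 had 294 and 257 normalized reads with SLNCR1 conserved, against 241 and 212 with vector, and ZNF697 had 1397 and 1390 with SLNCR1 conserved, against 1211 and 1243 with vector. ZNF469, the gene mutated in brittle cornea syndrome, had 464 and 435 with SLNCR1 conserved, against 539 and 681 normalized reads with vector. The SLNCR1 conserved libraries were thus above vector in ZNF136 and ZNF697 and below it in ZNF469, without overlap. Their log2 fold changes in the authors' deposited table were 0.27 for ZNF136, 0.17 for ZNF697 and -0.46 for ZNF469. Over all 243 members limma's log2 with SLNCR1 conserved ran from -0.43 (ZNF469) to 0.28 (ZNF136).

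Members were then sorted by the domains of their proteins, which 239 of them had in GENCODE 29. The remaining 4 were ZNF259, ZNF271, ZNF767 and ZNF788, some of which are pseudogenes or have been renamed. A KRAB match was found in 132 members. Of these, 19 fell with SLNCR1 (14.4%) and 24 with SLNCR1 delta conserved (18.2%) in the authors' deposited tables. The 91 members with at least 3 fingers and no KRAB match had 5 falls with SLNCR1 (5.49%) and 9 with SLNCR1 delta conserved (9.89%) there. The 16 with fewer fingers and no KRAB match had 1 fall with each (6.25%). Over all features, 0.844% fell with SLNCR1 and 1.14% with SLNCR1 delta conserved in the authors' deposited tables. Among all genes with a vector mean of 200 or more the shares were 2.09% and 3.0%.

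By median log2 difference, KRAB members were again the most lowered with SLNCR1 and with SLNCR1 delta conserved. The groups without a KRAB match ranked by median in another order than by share of falls with SLNCR1. By limma, KRAB members stood at -0.29 with SLNCR1, 0.05 with SLNCR1 conserved and -0.23 with SLNCR1 delta conserved. Members with at least 3 fingers and no KRAB match stood at -0.17 with SLNCR1, -0.0034 with SLNCR1 conserved and -0.13 with SLNCR1 delta conserved. For those with fewer fingers and no KRAB match the medians were -0.03 with SLNCR1, 0.03 with SLNCR1 conserved and -0.04 with SLNCR1 delta conserved. The 15 members with a SCAN match, a dimerization domain, had medians of -0.12 with SLNCR1, -0.06 with SLNCR1 conserved and -0.12 with SLNCR1 delta conserved. Of these 15, 2 fell with SLNCR1 (13.3%) and 1 with SLNCR1 delta conserved (6.67%) in the authors' deposited tables. These groups were described and not tested against each other.

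Members were also sorted by finger number. Limma's median log2 with SLNCR1 was -0.02 in the 17 members with 0 to 2 fingers, -0.08 in the 39 with 3 to 6, -0.22 in the 107 with 7 to 12 and -0.32 in the 76 with 13 or more. With SLNCR1 delta conserved the medians in the same order were -0.03, -0.11, -0.20 and -0.24, and with SLNCR1 conserved they were 0.02, -0.01, 0.03 and 0.04. Across the 239 members Spearman's rho between finger number and log2 was -0.43 with SLNCR1, 0.13 with SLNCR1 conserved and -0.33 with SLNCR1 delta conserved. Within the 132 KRAB members it was -0.28 with SLNCR1, 0.23 with SLNCR1 conserved and -0.14 with SLNCR1 delta conserved. Protein length had a rho with log2 of -0.37 with SLNCR1, -0.01 with SLNCR1 conserved and -0.25 with SLNCR1 delta conserved across members, and of -0.50, -0.14 and -0.34 in the same order across 9024 other genes. The parts of finger number and protein length in these values were not tested. Genes are not independent replicates, and all of these points share the same libraries, so no p is given.

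**Figure D3:**
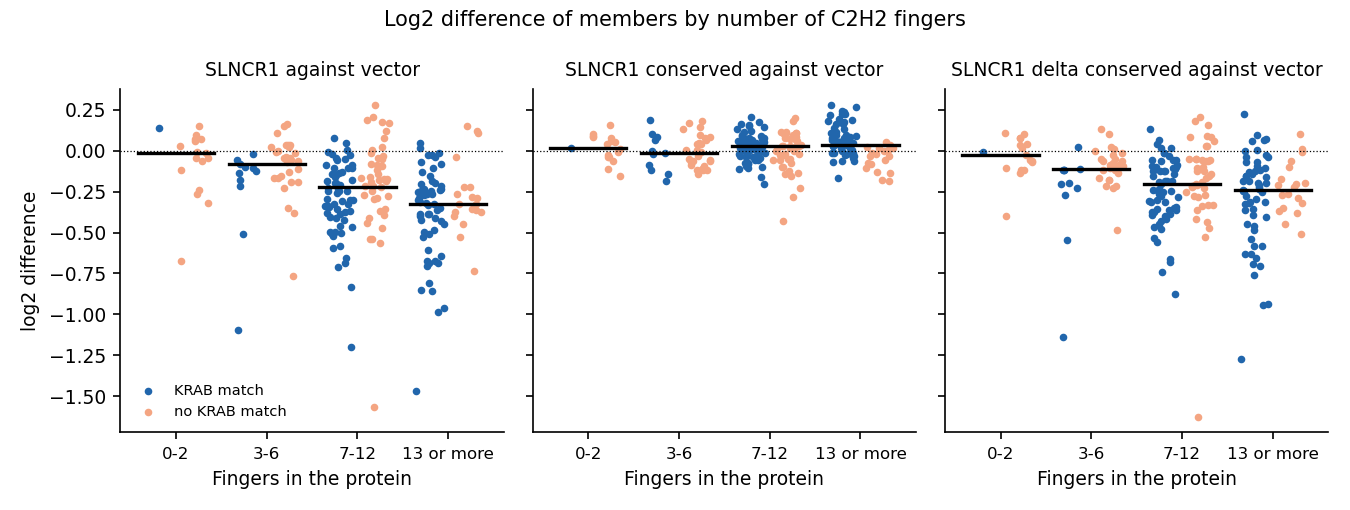
Limma's log2 difference from vector (y axis) of each of 239 members by the number of C2H2 fingers in its protein (x axis), for SLNCR1, SLNCR1 conserved and SLNCR1 delta conserved, with KRAB members in blue and the others in orange. Black bars are medians of all members in a bin, which run from -0.02 to -0.32 with SLNCR1, between -0.01 and 0.04 with SLNCR1 conserved, and from -0.03 to -0.24 with SLNCR1 delta conserved.

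Transcript length and base composition moved with the differences too. Across members, rho between transcript length and log2 was -0.34 with SLNCR1, 0.07 with SLNCR1 conserved and -0.07 with SLNCR1 delta conserved, and across 9024 other genes with a vector mean of 200 or more it was -0.49, -0.03 and -0.25 in the same order. Between GC content and log2 the members had a rho of 0.40 with SLNCR1, -0.63 with SLNCR1 conserved and 0.10 with SLNCR1 delta conserved, and the other genes 0.25, -0.51 and 0.007. The members had a median transcript of 3837 nt with 45.7% GC, and the other genes one of 3268 nt with 49.3% GC.

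The ZNF members were therefore also set beside other genes within the middle of their own range. Of transcripts between 2781 and 5280 nt, 119 members had a median of -0.22 with SLNCR1 and -0.21 with SLNCR1 delta conserved by limma, against 0.02 and 0.01 in 3287 other genes. Of these members, 13 fell in the authors' deposited tables with SLNCR1 (10.9%) and 18 with SLNCR1 delta conserved (15.1%), against 2.19% and 3.16% of the other genes. Between 41.3% and 56.0% GC, 119 members had a median of -0.27 with SLNCR1 and -0.20 with SLNCR1 delta conserved by limma, against 0.02 and 0.04 in 4667 other genes. The part of length and base composition in the differences was not tested.

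On chromosome 19 lay 103 members, and 15 of them fell with SLNCR1 (14.6%) and 21 with SLNCR1 delta conserved (20.4%) in the authors' deposited tables. Among all genes with a vector mean of 200 or more, 2.09% fell with SLNCR1 and 3.0% with SLNCR1 delta conserved in the authors' deposited tables. Their median log2 by limma was -0.30 with SLNCR1, 0.04 with SLNCR1 conserved and -0.22 with SLNCR1 delta conserved. The 136 members on other chromosomes had medians of -0.17 with SLNCR1, 0.0025 with SLNCR1 conserved and -0.13 with SLNCR1 delta conserved, with 10 falls with SLNCR1 (7.35%) and 13 with SLNCR1 delta conserved (9.56%) in the authors' deposited tables. Among KRAB members alone limma's median with SLNCR1 was -0.33 for the 80 on chromosome 19 and -0.19 for the 52 elsewhere. With SLNCR1 delta conserved these medians lay closer together, at -0.26 and -0.20, and with SLNCR1 conserved they were 0.05 and 0.01.

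Neighbouring ZNF genes were lower to different degrees. In the chromosome 19 run from ZNF627 to ZNF791, 24 numbered ZNF genes stand side by side in RefSeq with no other protein-coding gene among them, and 8 are members. Of these 8, ZNF441, ZNF844 and ZNF44 fell with SLNCR1 in the authors' deposited table, and these and ZNF791 fell with SLNCR1 delta conserved, while limma called 6 lower with SLNCR1 and 5 with SLNCR1 delta conserved. ZNF700 in the same run had 239 and 230 normalized reads with SLNCR1, 327 and 263 with SLNCR1 conserved and 213 and 241 with SLNCR1 delta conserved, against 281 and 275 with vector. ZNF136 had 195 and 174 with SLNCR1 and 197 and 201 with SLNCR1 delta conserved, against 241 and 212 normalized reads with vector. Both were lower than vector in each of those libraries, at log2 values of -0.24 (ZNF700, adjusted p = 1.0) and -0.29 (ZNF136, adjusted p = 0.979) with SLNCR1 in the authors' deposited table. Over the run, limma's log2 with SLNCR1 went from -1.47 to -0.25. Over all features, 0.844% fell with SLNCR1 and 1.14% with SLNCR1 delta conserved in the authors' deposited tables. By limma these shares were 7.4% and 5.24%.

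Other chromosome 19 runs differed in size, and their counts stand beside the same shares of all features. The 4 members from ZNF577 to ZNF836 had a median log2 by limma of -0.47 with SLNCR1, 0.01 with SLNCR1 conserved and -0.51 with SLNCR1 delta conserved, and 1 of them fell with SLNCR1 and 3 with SLNCR1 delta conserved in the authors' deposited tables, while limma called 4 lower with SLNCR1 and 3 with SLNCR1 delta conserved. The run from ZNF737 to ZNF681 has 27 ZNF genes and 8 members, among them ZNF91, and 0 of these fell in the authors' deposited tables, while limma called 1 lower with SLNCR1 and 0 with SLNCR1 delta conserved. Its median log2 by limma was -0.21 with SLNCR1, 0.10 with SLNCR1 conserved and -0.07 with SLNCR1 delta conserved. In the run from ZNF283 to ZNF180, 7 members had medians of -0.36 with SLNCR1, 0.10 with SLNCR1 conserved and -0.31 with SLNCR1 delta conserved, and ZNF283 and ZNF45 fell with SLNCR1 and with SLNCR1 delta conserved in the authors' deposited tables, while limma called 5 lower with SLNCR1 and 3 with SLNCR1 delta conserved. ZNF45 had 602 and 504 normalized reads with SLNCR1, 918 and 947 with SLNCR1 conserved and 544 and 618 with SLNCR1 delta conserved, against 966 and 839 with vector. By contrast, the 4 members from ZNF524 to ZNF580 had medians of 0.03 with SLNCR1, -0.08 with SLNCR1 conserved and -0.05 with SLNCR1 delta conserved, and limma called none of them lower with SLNCR1 or SLNCR1 delta conserved.

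Members with a described function were taken from a list of 45 names, of which 38 were expressed at the chosen level. Of these 38, 3 fell with SLNCR1 and 4 with SLNCR1 delta conserved in the authors' deposited tables, and limma called 11 lower with SLNCR1 and 5 with SLNCR1 delta conserved. Of all features, 0.844% fell with SLNCR1 and 1.14% with SLNCR1 delta conserved in the authors' deposited tables, and 7.4% and 5.24% by limma. None passed as higher in either test, and none passed with SLNCR1 conserved.

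Among repressors, ZNF274 brings the methyltransferase SETDB1 to the 3' ends of ZNF genes. It had 600 and 629 normalized reads with SLNCR1, 912 and 914 with SLNCR1 conserved and 589 and 609 with SLNCR1 delta conserved, against 874 and 872 with vector. Its SLNCR1 and SLNCR1 delta conserved libraries were close to each other and well below vector, at log2 values of -0.50 with SLNCR1 (adjusted p = 0.00355) and -0.55 with SLNCR1 delta conserved (adjusted p = 1.11e-05) in the authors' deposited tables. ZNF91, which silences SVA retrotransposons, had 456 and 454 with SLNCR1, 651 and 646 with SLNCR1 conserved and 527 and 573 with SLNCR1 delta conserved, against 637 and 587 normalized reads with vector. It was below vector in the SLNCR1 and SLNCR1 delta conserved libraries, and most so with SLNCR1. ZNF91 did not pass in the authors' deposited tables for SLNCR1 (log2 -0.43, adjusted p = 0.0776) or SLNCR1 delta conserved (log2 -0.16, adjusted p = 1.0), while limma called it lower with SLNCR1 (-0.43 ± 0.08, SE, adjusted p = 0.00232) and not with SLNCR1 delta conserved (adjusted p = 0.257).

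ZNF445, ZNF304, ZNF746, ZNF202, ZNF263, ZNF268 and ZNF655, KRAB members of the list, did not pass either test against vector. ZNF445, which guards genomic imprints, had 923 and 689 normalized reads with SLNCR1, 914 and 955 with SLNCR1 conserved and 915 and 928 with SLNCR1 delta conserved, against 956 and 934 with vector. ZNF304, which recruits TRIM28, had 247 and 236 with SLNCR1 and 213 and 248 with SLNCR1 delta conserved, against 297 and 259 normalized reads with vector. ZNF746, known as PARIS for its repression of PPARGC1A, had 850 and 864 with SLNCR1 and 782 and 793 with SLNCR1 delta conserved, against 864 and 987 normalized reads with vector. ZNF445 was far below vector in SLNCR1 b and slightly below it in the other SLNCR1 and SLNCR1 delta conserved libraries, ZNF304 was below vector in each of those libraries, and ZNF746 met the vector range in SLNCR1 b. ZNF202, ZNF263, ZNF268 and ZNF655 had limma log2 values with SLNCR1 of -0.23, -0.01, -0.40 and -0.14, at adjusted p of 0.0839, 0.97, 0.0508 and 0.22.

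Among members of corepressor complexes, ZNF217 is an oncogene product that binds CtBP and CoREST. It had 1760 and 1492 normalized reads with SLNCR1, 2183 and 2299 with SLNCR1 conserved and 1685 and 1784 with SLNCR1 delta conserved, against 2139 and 2047 with vector. No SLNCR1 or SLNCR1 delta conserved library reached the vector range. In the authors' deposited tables ZNF217 fell with SLNCR1 delta conserved (log2 -0.27, adjusted p = 0.0203) and did not pass with SLNCR1 (log2 -0.36, adjusted p = 0.0854), while limma called it lower with both (adjusted p = 0.0321 with SLNCR1 delta conserved and 0.00619 with SLNCR1). The limma call of ZNF217 with SLNCR1 delta conserved was lost without any single library of vector, SLNCR1 conserved or SLNCR1 delta conserved (adjusted p of 0.0536 to 0.226). ZNF644, a partner of the methyltransferases EHMT1 and EHMT2, had 666 and 568 with SLNCR1, 913 and 858 with SLNCR1 conserved and 709 and 703 with SLNCR1 delta conserved, against 896 and 750 normalized reads with vector. Limma called ZNF644 lower with SLNCR1 (-0.41, adjusted p = 0.00869) and not with SLNCR1 delta conserved (adjusted p = 0.153). It did not pass in the authors' deposited table for SLNCR1 (adjusted p = 0.54).

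ZNF592, ZNF687 and ZNF532 form a complex with the chromatin reader ZMYND8. ZNF687 had 1212 and 1201 normalized reads with SLNCR1, 1274 and 1321 with SLNCR1 conserved and 1149 and 1121 with SLNCR1 delta conserved, against 1294 and 1412 with vector. Limma called it lower with SLNCR1 delta conserved (-0.25, adjusted p = 0.0242), and the authors' deposited table did not (adjusted p = 0.0957). Limma's call of ZNF687 was likewise lost without any single library of vector, SLNCR1 conserved or SLNCR1 delta conserved (adjusted p of 0.0525 to 0.204). ZNF592 had 1566 and 1358 with SLNCR1, and 1462 and 1518 with SLNCR1 delta conserved, against 1606 and 1685 normalized reads with vector, and ZNF532 had 1301 and 914 with SLNCR1 and 1249 and 1294 with SLNCR1 delta conserved, against 1311 and 1320 with vector. Neither passed either test, and in ZNF532 SLNCR1 b alone was far below vector.

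The list also held sequence-specific regulators without KRAB. ZNF143 and ZNF76, which activate small nuclear RNA promoters, had 331 and 322 normalized reads (ZNF143) and 546 and 495 (ZNF76) with SLNCR1, against 350 and 326 (ZNF143) and 488 and 547 (ZNF76) with vector. ZNF384 had 1066 and 1056 with SLNCR1 and 1149 and 1163 with SLNCR1 delta conserved, against 1132 and 1134 normalized reads with vector. ZNF703, an oncogene of breast cancer, had 386 and 351 with SLNCR1, against 356 and 405 normalized reads with vector. None of these 4 passed either test against vector. ZNF281, a factor tied to stem cell genes and the epithelial to mesenchymal transition, was lower: it had 1019 and 860 with SLNCR1, 1315 and 1319 with SLNCR1 conserved and 976 and 1059 with SLNCR1 delta conserved, against 1200 and 1185 normalized reads with vector. Limma called ZNF281 lower with SLNCR1 (-0.35, adjusted p = 0.0104) and not with SLNCR1 delta conserved (-0.23, adjusted p = 0.0736), and it did not pass in the authors' deposited tables. Without SLNCR1 b the limma value of ZNF281 was -0.23 (adjusted p = 0.0792).

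Members that work on ribosomes or the spindle did not pass either test. ZNF598, the ubiquitin ligase that senses collided ribosomes, had 2190 and 2271 normalized reads with SLNCR1, 2167 and 2201 with SLNCR1 conserved and 2274 and 2211 with SLNCR1 delta conserved, against 1956 and 2303 with vector. ZNF207, which loads BUB3 at kinetochores, had 2009 and 2014 with SLNCR1 and 2065 and 2180 with SLNCR1 delta conserved, against 1975 and 1965 normalized reads with vector. ZNF622, a factor of large ribosomal subunit maturation, had 817 and 960 with SLNCR1 and 862 and 879 with SLNCR1 delta conserved, against 837 and 912 normalized reads with vector. Their limma adjusted p with SLNCR1 was 0.576 (ZNF598), 0.814 (ZNF207) and 0.907 (ZNF622), and none of them had more than 3 fingers.

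ZNF451, a SUMO ligase, differed from these. It had 684 and 557 normalized reads with SLNCR1, 943 and 983 with SLNCR1 conserved and 674 and 722 with SLNCR1 delta conserved, against 907 and 888 with vector. It fell with SLNCR1 (log2 -0.53, adjusted p = 0.00288) and with SLNCR1 delta conserved (log2 -0.37, adjusted p = 0.0106) in the authors' deposited tables. ZNF638, a nuclear protein that silences unintegrated retroviral DNA, had 1723 and 1513 with SLNCR1, 1963 and 2010 with SLNCR1 conserved and 1710 and 1803 with SLNCR1 delta conserved, against 1995 and 1829 normalized reads with vector. It was called lower with SLNCR1 by limma (-0.24, adjusted p = 0.0436) and did not pass in the authors' deposited table (adjusted p = 0.629). Limma's call of ZNF638 was lost without any single library other than SLNCR1 a and vector b, and its value was -0.15 without SLNCR1 b. ZNF292, a transcription factor gene mutated in neurodevelopmental disorders, had 504 and 337 with SLNCR1 and 575 and 548 with SLNCR1 delta conserved, against 775 and 608 normalized reads with vector. Limma put ZNF292 at -0.73 with SLNCR1 (adjusted p = 0.00241), though the authors' deposited table did not call it (adjusted p = 0.578), and its SLNCR1 libraries were far apart. Without SLNCR1 a limma's value for ZNF292 was -1.02, without SLNCR1 b it was -0.45, and without vector a the call was lost (-0.55, adjusted p = 0.117).

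The cofactors of KRAB repression were mostly near vector. Over 35 listed cofactors, limma's median log2 was 0.07 with SLNCR1, 0.06 with SLNCR1 conserved and 0.08 with SLNCR1 delta conserved. None passed in the authors' deposited table for SLNCR1, where 0.844% of features fell and 0.0388% rose. In that for SLNCR1 delta conserved, where 1.14% fell and 1.11% rose, the remodeller CHD4 alone passed, as higher (log2 0.22, adjusted p = 0.0393). Limma did not call CHD4 with SLNCR1 delta conserved (adjusted p = 0.0547). Among the cofactors reported here, limma called CBX3 higher and ATF7IP and MORC3 lower with SLNCR1, where 3.93% of features were higher and 7.4% lower. For SLNCR1 delta conserved it called 3 higher (TRIM28, CBX3 and SUMO2) and 1 lower (MORC3), where 5.18% of features were higher and 5.24% lower. The scaffold TRIM28 had 4496 and 4806 normalized reads with SLNCR1, 4113 and 4418 with SLNCR1 conserved and 4748 and 5030 with SLNCR1 delta conserved, against 3652 and 4227 with vector. TRIM28 was above vector in every SLNCR1 and SLNCR1 delta conserved library, and limma called it higher with SLNCR1 delta conserved (adjusted p = 0.0173) but not with SLNCR1 (adjusted p = 0.055). SETDB1, the methyltransferase, had 1074 and 948 with SLNCR1 and 1063 and 1116 with SLNCR1 delta conserved, against 1049 and 1111 normalized reads with vector. ATF7IP, a partner of SETDB1, had 1064 and 828 with SLNCR1, 1274 and 1280 with SLNCR1 conserved and 1071 and 1104 with SLNCR1 delta conserved, against 1224 and 1198 normalized reads with vector (limma -0.37 with SLNCR1, adjusted p = 0.016). The chromatin ATPase MORC3 was lower, with 361 and 321 with SLNCR1 and 373 and 392 with SLNCR1 delta conserved, against 513 and 438 normalized reads with vector. Limma called MORC3 lower with both (adjusted p = 0.00397 with SLNCR1 and 0.0426 with SLNCR1 delta conserved). Whether limma's calls of cofactors held without single libraries was not examined.

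Zinc finger genes with other names are given for comparison. ZBTB genes join fingers to a BTB domain, and 33 had a vector mean of 200 or more. Of these 33, 4 fell with SLNCR1 (12.1%) and 8 with SLNCR1 delta conserved (24.2%) in the authors' deposited tables. The same shares were 10.3% and 14.4% for the ZNF members. For all genes with a vector mean of 200 or more they were 2.09% and 3.0%. Limma's medians for the ZBTB genes were -0.22 with SLNCR1, 0.03 with SLNCR1 conserved and -0.13 with SLNCR1 delta conserved. The 10 ZSCAN and ZKSCAN genes had medians of -0.35 with SLNCR1, -0.06 with SLNCR1 conserved and -0.28 with SLNCR1 delta conserved. For the 9 ZFP genes they were -0.02, 0.04 and -0.13 in the same order.

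The constructs were then compared with each other directly by limma. SLNCR1 against SLNCR1 conserved gave 104 lower members and 1 higher, where 9.46% of features were lower and 2.05% higher. Both SLNCR1 libraries lay below both SLNCR1 conserved libraries for 170 members and above for 25, where 27.9% of features were below and 29.3% above. The count of calls in both directions was 49 without SLNCR1 conserved a and 63 without SLNCR1 conserved b. The 5 lowest were ZNF79 (-1.68 ± 0.13), ZNF441 (-1.65 ± 0.10), ZNF844 (-1.28 ± 0.08), ZNF460 (-1.24 ± 0.20) and ZNF44 (-1.07 ± 0.11), given as log2 difference ± SE, with adjusted p of 9.78e-08, 4.23e-09, 9.34e-09, 0.00043 and 4.48e-06. The single higher member was ZNF358, with 464 and 498 normalized reads with SLNCR1, against 384 and 380 with SLNCR1 conserved, a limma difference of 0.33 ± 0.10 (SE, adjusted p = 0.0343). Limma's call of ZNF358 was lost without SLNCR1 b (adjusted p = 0.119), SLNCR1 conserved a (0.177) or SLNCR1 conserved b (0.173), and ZNF460 stood at -0.74 without SLNCR1 b.

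SLNCR1 conserved against SLNCR1 delta conserved gave 65 higher members and 1 lower, where 5.79% of features were higher and 1.11% lower. Both SLNCR1 conserved libraries lay above both SLNCR1 delta conserved libraries for 163 members and below for 18, where 28.5% of features were above and 28.9% below. The count of calls in both directions was 26 without SLNCR1 conserved a, 32 without SLNCR1 conserved b, 24 without SLNCR1 delta conserved a, 109 without SLNCR1 a and 109 without SLNCR1 b. The largest limma differences were those of ZNF79 (1.73), ZNF441 (1.45), ZNF844 (1.33), ZNF44 (1.03) and ZNF184 (1.02), with adjusted p of 5.66e-08, 2.45e-08, 6.33e-09, 7.29e-06 and 1.6e-05. ZNF469 was the lower one, with 464 and 435 normalized reads with SLNCR1 conserved, against 616 and 554 with SLNCR1 delta conserved (limma -0.38, adjusted p = 0.044). That call was lost under trimmed-mean scaling (adjusted p = 0.0797) and without any 1 of the 4 libraries compared (adjusted p of 0.0937 to 0.32).

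Between SLNCR1 and SLNCR1 delta conserved 0 members passed limma's adjusted p, as did 0.0% of the 16071 features in either direction. At an unadjusted p under 0.05, 24 members were lower with SLNCR1 and 5 higher, or 9.88% and 2.06%, where 5.41% and 2.58% of features were. Both SLNCR1 libraries lay below both SLNCR1 delta conserved libraries for 47 members and above for 31, where 16.9% of features were below and 16.3% above. The members' median log2 was -0.02, with 0.01 under library totals, 0.01 without SLNCR1 b and -0.06 without SLNCR1 delta conserved a, and single members ran from -0.83 (ZNF460) to 0.40 (ZNF341). Without SLNCR1 a, 34 members passed. With all libraries, rho between transcript length and log2 in this comparison was -0.477 across members and -0.426 across 9024 other genes. For GC content it was 0.527 and 0.436. The part of length and base composition in the differences between these constructs was not tested. A missed threshold with 2 libraries a group does not show that the constructs act alike.

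SLNCR1 against SLNCR1 conserved and SLNCR1 delta conserved against vector share no library, so they can be set side by side. Of the 104 members lower in the first and the 65 lower in the second, 53 were in both, which is 51.0% of the first list and 81.5% of the second. Among 9684 other genes with a vector mean of 200 or more, 401 were in both, which is 36.3% of 1104 and 75.1% of 534. Across the 243 members the log2 differences of the 2 comparisons had a Pearson's r of 0.79 and a Spearman's rho of 0.70, and across the other genes 0.71 and 0.58. These are descriptions across genes, which are not independent replicates and share traits such as transcript length, and they carry no p. Both comparisons also come from the same fit, with a shared estimate of each gene's spread and shared scaling. Each comparison also sets shallower libraries against deeper ones, and the part of depth was not tested. The vector values in the second comparison also chose the members. The lists of calls are therefore not independent.

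**Figure D4:**
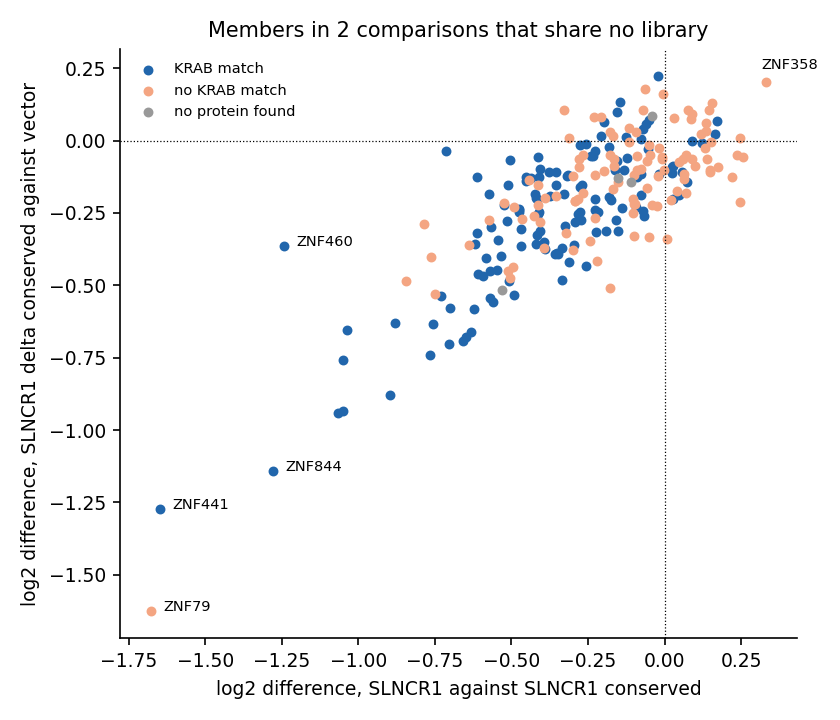
Limma's log2 difference of each of 243 members in SLNCR1 against SLNCR1 conserved (x axis) and in SLNCR1 delta conserved against vector (y axis), with KRAB members in blue, members without a KRAB match in orange and members with no protein found in grey. ZNF79 (-1.68 and -1.63), ZNF441 (-1.65 and -1.27) and ZNF844 (-1.28 and -1.14) are lowest in both, and ZNF460 (-1.24 and -0.36) lies off the trend.

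Single calls of named members were stable to different degrees. ZNF79, ZNF441, ZNF844, ZNF44, ZNF184, ZNF773, ZNF267, ZNF274 and ZNF697 kept limma's call as lower with SLNCR1 and with SLNCR1 delta conserved under trimmed-mean scaling and without each library in turn. ZNF697, a gene with 11 fingers and no KRAB match, had 877 and 783 normalized reads with SLNCR1, 1397 and 1390 with SLNCR1 conserved and 819 and 881 with SLNCR1 delta conserved, against 1211 and 1243 with vector. Without vector a, the calls of ZNF217, ZNF256, ZNF281, ZNF292, ZNF318, ZNF420, ZNF609, ZNF638, ZNF644, ZNF671, ZNF678, ZNF721 and ZNF91 with SLNCR1 were lost while their direction held, and those of ZNF281, ZNF318, ZNF609, ZNF638 and ZNF678 were also lost without SLNCR1 b. The calls with SLNCR1 delta conserved of ZNF217, ZNF283, ZNF420, ZNF451, ZNF484, ZNF654, ZNF671 and ZNF687 were lost likewise without vector a. Zinc finger genes share similar coding sequence, and reads that fit several of them could be split or dropped by the authors' counting, which matters most for close relatives such as ZNF441, ZNF440 and ZNF844. The libraries do not mark strand, so reads of an overlapping antisense gene cannot be told apart from those of a member.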

How the data were processed

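Poly(A) RNA from A375 cells was sequenced in 4 groups of 2 libraries. The tools named per the submitters' processing notes are DESeq, featureCounts and STAR, with build hg19. No version and no gene annotation is given in the sources used here. Each of the 3 deposited tables holds, per the file headers, the authors' signal for a construct and for vector, a group mean of reads divided by size factors. The deposited tables also hold the authors' fold change, as the ratio of those means, and the authors' p-values and adjusted p-values. "The authors' deposited table" marks those values, with log2 taken of the fold here.

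Since each library adds whole reads in steps of its own size to a group mean, the reads of both libraries could be solved, with a single solution for all 243 members in every group. Reads were scaled over the 8 libraries by median-of-ratios size factors and tested as log2(normalized reads + 1) with limma 3.58.1 in R 4.3.3, over 16073 rows (16071 different names) whose mean reached 10. P-values were adjusted by Benjamini-Hochberg, with a threshold of 0.05. This scale understates changes of low genes. The plan had named a count test should single-library counts be deposited. As they were not, limma was used. The steps were tested on simulated data. Alternatives were trimmed-mean scaling (TMM, coded here), library totals, another pseudocount, no filter, a higher vector mean, leaving out each library and, added after the data were seen, members chosen by their mean over all libraries or with SLNCR1 conserved.

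C2H2 fingers were counted by pattern, and KRAB and SCAN domains by pyhmmer 0.12.3 profiles (E-value 1e-05), in GENCODE 29 proteins. Promoters came from RefSeq, GRCh38.p14. Python 3.11.15 was used with pandas 2.3.3, numpy 2.4.6, scipy 1.17.1 and matplotlib 3.10.9. The members, gene lists and tests were chosen with earlier results of these data known. Named genes are, against vector, up to 10 passing members per direction by size of log2 (or the 10 lowest p where fewer passed), the 5 largest each way between constructs, genes next to the level threshold, a list of members with described roles and the KRAB cofactors. ZNF45, ZNF700, ZNF791 and ZNF341 were added after their values were seen. A listed cofactor is not reported here.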

Additional observations from a re-analysis of the deposited data

How the results depend on the processing

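The direction of the members' median against vector was the same without each library in turn, with SLNCR1 between -0.2742 and -0.1671 and with SLNCR1 delta conserved between -0.1825 and -0.1675, while SLNCR1 conserved ran from 0.0175 to 0.0612. Trimmed-mean scaling gave -0.2485 with SLNCR1, -0.2247 with SLNCR1 delta conserved and 0.2277 for SLNCR1 conserved against SLNCR1 delta conserved. A mean over all 8 libraries of 200 or more, a choice made after the data were seen, gave -0.1532 with SLNCR1 delta conserved. Library totals gave -0.2496 with SLNCR1, -0.2396 with SLNCR1 delta conserved, -0.0141 with SLNCR1 conserved, which turned its sign, and 0.0081 for SLNCR1 against SLNCR1 delta conserved. Without single libraries the medians ran from -0.2787 to -0.182 for SLNCR1 against SLNCR1 conserved and from -0.0575 to 0.0101 for SLNCR1 against SLNCR1 delta conserved. Counts of limma's calls moved more. With no filter on low values, where more genes were tested, they were 45 with SLNCR1, 35 with SLNCR1 delta conserved, 69 for SLNCR1 against SLNCR1 conserved and 39 for SLNCR1 conserved against SLNCR1 delta conserved. With a vector mean of 400 or more, which leaves fewer members, they were 51, 41, 58 and 38 in that order, and the authors' deposited tables gave 14 with SLNCR1 and 23 with SLNCR1 delta conserved. Without single libraries limma's counts ran from 27 to 127 with SLNCR1, from 20 to 90 with SLNCR1 delta conserved, from 0 to 1 with SLNCR1 conserved, from 49 to 132 for SLNCR1 against SLNCR1 conserved, from 24 to 109 for SLNCR1 conserved against SLNCR1 delta conserved and from 0 to 34 for SLNCR1 against SLNCR1 delta conserved. The lone library of a group is then assumed to vary like the others, and the cause of the moves was not tested. Of the values of named members under alternatives, 816 kept their call, 111 kept only their direction and 0 reversed. No paired analysis was possible because the solved libraries carry no replicate numbers.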
